A study of Homo sapiens with 11 samples.

Results

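U2OS cells, a human osteosarcoma line, were given doxorubicin, and their RNA was set against that of U2OS cells given the vehicle DMSO. The comparison consists of 2 of the 11 RNA-seq libraries of the study, chosen by their titles: 1 library of U2OS cells exposed to 1 µM doxorubicin for 8 h, and 1 library of U2OS cells with DMSO, for which no duration is given. The study treated U2OS and the breast cancer line MDA-MB231 with doxorubicin, etoposide, paclitaxel or methyl methanesulfonate (MMS), at doses that its design text describes as the IC50 over 72 h, to set an alkylating agent beside classical chemotherapeutics. The other U2OS libraries used here received 20 µM etoposide, 40 µg/mL MMS or 0.2 µM paclitaxel, each for 8 h, and share the same DMSO library. MDA-MB231 cells with 1 µM doxorubicin for 8 h and with DMSO (2 libraries) serve as the other line. The labels name no engineered allele; cells were grown in DMEM with serum, and total RNA came from sub-confluent dishes. With 1 library a side there is no replicate check of any difference below, no test of the condition was possible, and no p-value is given.

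Doxorubicin is an anthracycline that inserts between DNA base pairs and traps topoisomerase II on the DNA it has cut, and anthracyclines also evict histones from chromatin. The breaks activate the kinases ATM and ATR, and the response is known to raise genes such as CDKN1A, the cell cycle inhibitor p21, and MDM2, a ubiquitin ligase of its negative feedback. U2OS cells are widely used to study this response.

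The deposited values are whole-number read counts per gene symbol for 23228 genes. Counts assigned to genes came to 24490063 with doxorubicin and 18959126 with DMSO. Levels are given as CPM, reads per 1000000 of a library size scaled with TMM (trimmed mean of M-values, which centres the bulk of genes on no change), and differences as log2 ratios of doxorubicin over DMSO. CPM are not divided by gene length, so they compare libraries and not genes. A gene was taken as measured where the larger of its 2 levels was at least 5 CPM, which kept 11730 genes and left out 11498. Intervals are exact 95% binomial intervals and cover counting error only, so they are narrow for abundant genes and say nothing of the spread between cultures.

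The U2OS doxorubicin library held the extreme value of the 11 in each measure of makeup below, by a small margin for reads outside genes. Its TMM factor of 0.842 was the lowest of the 11, against 1.03 for the DMSO library, and the next lowest was 0.923 for MDA-MB231 with doxorubicin. The 20 most abundant genes took 8.07% of its gene counts, against 5.32% with DMSO and 6.33% in MDA-MB231 with doxorubicin. Reads aligned to several places made up 37.5% of all reads tabulated with doxorubicin and 32.7% with DMSO, and reads outside genes 9.70% with doxorubicin and 7.74% with DMSO. The next highest values were 34.4% in MDA-MB231 with doxorubicin for several places and 9.27% in U2OS with MMS outside genes. The identity of the line was checked against its markers. The mesenchymal genes VIM (2679 CPM with doxorubicin and 1851 CPM with DMSO), SPARC (1943 CPM with doxorubicin and 935 CPM with DMSO) and CDH2 (285 CPM with doxorubicin and 164 CPM with DMSO) and the osteoblast factor RUNX2 (17 CPM with doxorubicin and 23.3 CPM with DMSO) were present, while COL1A2, a bone collagen chain, had 3 reads with doxorubicin and 0 with DMSO. Of 18 osteoblast and mesenchymal markers 11 were measured, and TWIST1 was under the minimum level (2.42 CPM with doxorubicin and 1.74 CPM with DMSO). The epithelial genes CDH1, KRT5, KRT19 and ESRP1 and the blood genes PTPRC, CD3E and HBB had at most 13 reads in either library. Of 19 epithelial markers 11 were measured, among them KRT8 (743 CPM with doxorubicin and 550.5 CPM with DMSO) and its partner keratin KRT18 (195 CPM with doxorubicin and 409 CPM with DMSO). EPCAM had 142 reads with doxorubicin and 64 reads with DMSO, and ELF3 had 183 reads with doxorubicin and 410 reads with DMSO. The myeloid genes CD14 and ITGAM had 44 and 37 reads with doxorubicin and 2 and 1 with DMSO.

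Doxorubicin was accompanied by differences in a large share of the measured genes. Of 11730 genes, 1708 (14.6%) were higher by 2-fold or more with doxorubicin and 2244 (19.1%) were lower, or 3952 (33.7%) in all. Counts of the gene lists below are to be read beside these shares. At 4-fold or more, 309 (2.63%) were higher and 592 (5.05%) lower, and at 8-fold or more, 105 (0.895%) were higher and 125 (1.07%) lower. The median log2 ratio was -0.03, with quartiles at -0.77 and 0.65. Scaling by total gene counts in place of TMM lowers every log2 ratio by 0.29, and the same genes then split into 959 higher and 3168 lower. Directions below are relative to the TMM scale. Where a direction or a 2-fold call of a named gene, or the counts of a list, differ under total counts, that value stands beside it.

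**Figure D1:**
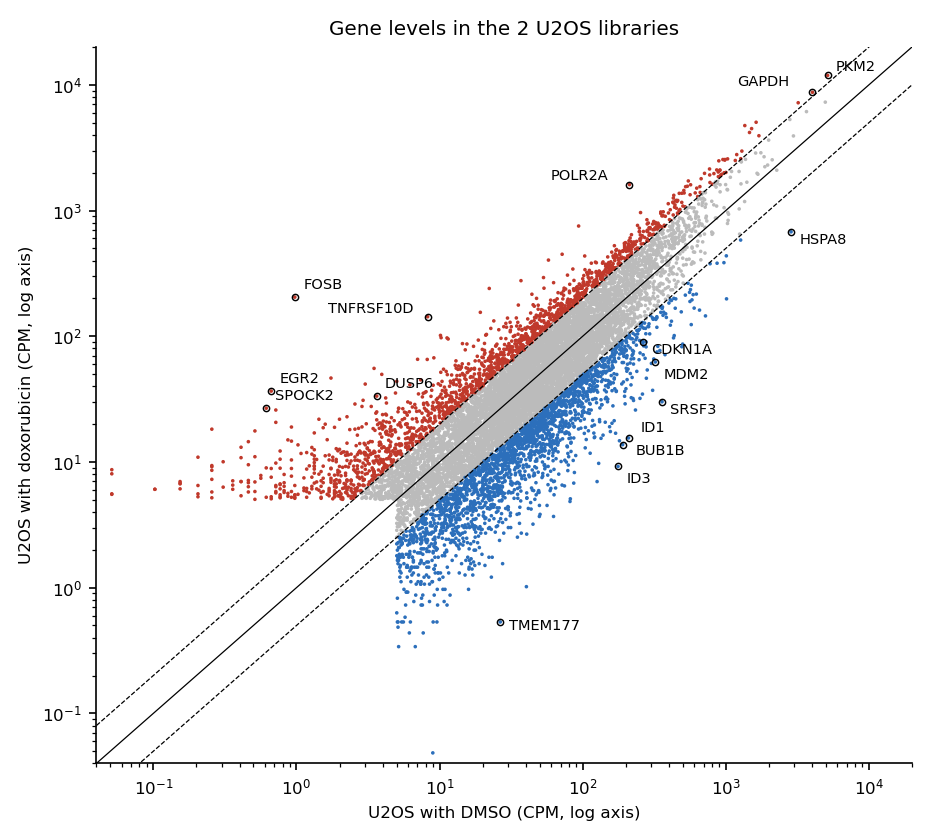
Level of each measured gene in U2OS cells with doxorubicin (vertical axis) against U2OS cells with DMSO (horizontal axis), in CPM on log axes, 1 library each. The solid line marks equal levels and the dashed lines 2-fold, and genes 2-fold or more higher (1708) are red and 2-fold or more lower (2244) blue. A gene with 0 reads in 1 library is not drawn. FOSB lies farthest above the lines among the named genes and TMEM177 farthest below.

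In the same U2OS cells, 1674 of 11585 measured genes (14.4%) passed 2-fold with etoposide, 768 (6.63%) higher and 906 (7.82%) lower. With MMS 2257 of 11496 (19.6%) did, 894 (7.78%) higher and 1363 (11.9%) lower, and with paclitaxel 18 of 11266 (0.16%), 15 (0.133%) higher and 3 (0.0266%) lower. All 4 drugs share the DMSO library, so a property of that library would enter each of these counts. The doxorubicin library held the largest of the 4 counts. The series holds no second U2OS vehicle library, so the spread between U2OS vehicle cultures is not known. Between the 2 DMSO libraries of MDA-MB231, 218 of 10841 genes (2.01%) passed 2-fold, 94 (0.867%) higher and 124 (1.14%) lower in replicate 2.

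FOSB and EGR2 had the largest ratios of the named genes reaching 10 CPM. Both are immediate early factors, the transcription factors that cells switch on within minutes of a stimulus. FOSB, a partner of JUN in the AP-1 complex, had 4221 reads with doxorubicin and 19 reads with DMSO, or 205 CPM with doxorubicin against 0.973 CPM with DMSO. Its log2 ratio was 7.72 (interval 7.07 to 8.45), a 210.2-fold difference. EGR2, a zinc finger factor of the early growth response family, had 755 reads with doxorubicin and 13 reads with DMSO, or 36.6 CPM with doxorubicin against 0.666 CPM with DMSO, a log2 ratio of 5.78 (5.0 to 6.70). NR4A3, an orphan nuclear receptor, had 11.2 CPM with doxorubicin against 1.59 CPM with DMSO, a log2 ratio of 2.82. FOSB and EGR2 were thus barely read with DMSO and well covered with doxorubicin. The other higher early factors were NR4A2 (2.30), FOS (2.29, with 18.5 CPM with doxorubicin and 3.79 CPM with DMSO), EGR1 (2.09, with 119 CPM with doxorubicin and 28.1 CPM with DMSO), ATF3 (1.87, with 56.1 CPM with doxorubicin and 15.3 CPM with DMSO) and ZFP36 (1.63), which encodes a protein that speeds the decay of AU-rich mRNAs.

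The early response was not uniform. Of 34 listed factors 31 were measured, and 8 were 2-fold or more higher, 11 lower and 12 in between, with a median log2 ratio of -0.39 against -0.03 over all measured genes (8 higher and 14 lower under total counts). These are 25.8% higher and 35.5% lower, set against 14.6% and 19.1% of all measured genes. JUND, the AP-1 subunit that resting cells already hold, was at 6.3 CPM with doxorubicin against 36.4 CPM with DMSO, a log2 ratio of -2.53 (-2.81 to -2.26). CYR61, a secreted matrix protein and a target of the coactivator YAP, was at 53.9 CPM with doxorubicin against 283 CPM with DMSO (-2.39). MYC, the growth-promoting factor, was at 80.8 CPM with doxorubicin against 185 CPM with DMSO (-1.20), and FOSL1 and IER2 lay at -2.17 and -1.99. JUN itself differed little, at -0.31.

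The promoters of the 3 early factors with the largest ratios are shown because all 3 were higher, with those of 2 mitosis genes that lay far below DMSO for contrast. Each runs from 250 bases before to 50 bases after the annotated start in RefSeq (GRCh38.p14), 5′ to 3′ on the gene's strand. They are FOSB at chr19:45467746-45468045 (plus strand), EGR2 at chr10:62819118-62819417 (minus), NR4A3 at chr9:99821635-99821934 (plus), BUB1B at chr15:40160819-40161118 (plus) and KIF20B at chr10:89701340-89701639 (plus). Capitals mark matches on either strand to TGACGTCA, the cyclic AMP response element (CRE), to TGACGT, the core that the CRE contains, to the CCAAT box (which reads ATTGG on the opposite strand), to TATAAA, and to TTTGAA, the cell cycle homology region (CHR) known from G2 and M phase genes.
FOSB: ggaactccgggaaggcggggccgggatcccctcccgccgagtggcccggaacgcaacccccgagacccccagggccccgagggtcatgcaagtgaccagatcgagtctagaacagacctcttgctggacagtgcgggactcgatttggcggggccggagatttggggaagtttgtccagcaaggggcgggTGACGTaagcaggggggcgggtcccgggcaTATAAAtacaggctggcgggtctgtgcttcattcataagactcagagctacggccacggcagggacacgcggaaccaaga
EGR2: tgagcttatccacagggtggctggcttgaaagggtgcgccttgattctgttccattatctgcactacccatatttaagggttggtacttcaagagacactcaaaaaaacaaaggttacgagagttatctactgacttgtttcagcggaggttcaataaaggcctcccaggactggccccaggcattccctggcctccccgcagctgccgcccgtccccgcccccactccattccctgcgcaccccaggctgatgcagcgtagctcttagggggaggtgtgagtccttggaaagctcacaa
NR4A3: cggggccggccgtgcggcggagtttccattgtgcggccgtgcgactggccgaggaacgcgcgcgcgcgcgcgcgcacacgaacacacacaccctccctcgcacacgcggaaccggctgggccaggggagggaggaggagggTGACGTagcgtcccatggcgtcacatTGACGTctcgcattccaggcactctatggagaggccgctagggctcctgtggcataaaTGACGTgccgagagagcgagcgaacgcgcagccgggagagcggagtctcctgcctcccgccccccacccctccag
BUB1B: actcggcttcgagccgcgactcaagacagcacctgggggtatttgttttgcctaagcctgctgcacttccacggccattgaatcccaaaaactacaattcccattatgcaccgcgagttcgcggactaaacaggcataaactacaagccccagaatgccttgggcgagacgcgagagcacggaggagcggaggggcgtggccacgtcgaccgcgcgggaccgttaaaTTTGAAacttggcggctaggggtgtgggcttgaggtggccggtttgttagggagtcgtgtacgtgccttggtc
KIF20B: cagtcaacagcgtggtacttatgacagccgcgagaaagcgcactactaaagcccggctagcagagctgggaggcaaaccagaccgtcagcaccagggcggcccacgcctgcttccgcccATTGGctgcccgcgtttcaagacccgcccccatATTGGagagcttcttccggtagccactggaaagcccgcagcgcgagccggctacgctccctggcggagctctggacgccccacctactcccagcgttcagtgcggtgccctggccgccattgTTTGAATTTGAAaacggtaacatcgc
The TGACGT core was chosen after these sequences had been read. FOSB has it 60 bases before the start, ahead of a TATAAA 30 bases before the start, and NR4A3 has 3 copies, 109, 83 and 25 bases before the start. EGR2 holds none of the letters searched in this window. BUB1B has a TTTGAA 23 bases before the start, and KIF20B has 2 ATTGG, 131 and 98 bases before the start, and 2 TTTGAA, 25 and 31 bases after it. Over all 27305 promoters of the table, 8.32% hold TGACGT, 1.98% TGACGTCA, 35.7% CCAAT, 11.95% TATAAA and 15.4% TTTGAA. Among measured genes with a promoter 12.2% hold TGACGT. The share was 11.1% for genes 2-fold or more higher and 11.95% for genes 2-fold or more lower, so TGACGT was not more frequent among the higher genes. Only 23 of the 34 early factors matched a promoter by symbol, too few to give shares for that list.

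Beyond FOSB and EGR2, the genes with the highest ratios among those reaching 10 CPM belonged to varied gene families. SPOCK2, which encodes a proteoglycan of the matrix, was at 26.8 CPM with doxorubicin against 0.615 CPM with DMSO (5.44). TEX14, a gene known from the germline, was at 17.6 CPM with doxorubicin against 0.512 CPM with DMSO (5.11), and EPHA4, an ephrin receptor, at 55.5 CPM with doxorubicin against 3.48 CPM with DMSO (3.99). FRAT1, which stabilises beta-catenin by holding GSK3, was at 20.7 CPM with doxorubicin against 0.717 CPM with DMSO (4.85), and NLGN3, a neuronal adhesion protein, at 12.2 CPM with doxorubicin against 0.769 CPM with DMSO (3.99). CCDC17, CRTAC1, AP3B2, GCNT4, ZNF425 and ISYNA1 had log2 ratios between 4.10 and 5.17. Apart from GCNT4 (34 reads) and EPHA4 (68 reads), these 11 genes had 6 to 17 reads with DMSO, which is why their intervals are wide, as for CRTAC1 (3.88 to 6.49).

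The lowest ratio of the named genes reaching 10 CPM was that of TMEM177. This gene, which encodes a mitochondrial membrane protein, had 11 reads with doxorubicin and 518 reads with DMSO (-5.64, interval -6.65 to -4.79), a 49.8-fold difference. ID3, whose protein keeps helix-loop-helix factors off DNA, had 190 reads with doxorubicin and 3445 reads with DMSO, or 9.21 CPM with doxorubicin against 177 CPM with DMSO, a log2 ratio of -4.26. SYTL3, a vesicle trafficking gene, was at 4.85 CPM with doxorubicin against 81.5 CPM with DMSO (-4.07). The chromatin reader ZMYND8 was at 3.2 CPM with doxorubicin against 44.9 CPM with DMSO (-3.81) and the nuclear receptor coactivator NCOA5 at 5.09 CPM with doxorubicin against 82 CPM with DMSO (-4.01). The remaining genes at this end were ASB13, MOBKL2A, TSPYL5, ZNF70, ZBTB45, TNS4, TNFAIP8L1, FDXACB1 and BUB1B, between -4.25 and -3.79. Each of these 14 genes had at least 210 reads with DMSO. This follows from the minimum of 10 CPM, which genes at this end can meet only through the DMSO library. The highest genes met it through the doxorubicin library.

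The arrest gene CDKN1A and the feedback gene MDM2 of the DNA damage response were both lower. CDKN1A had 1868 reads with doxorubicin and 5144 reads with DMSO, or 90.6 CPM with doxorubicin against 264 CPM with DMSO, a log2 ratio of -1.54 (-1.62 to -1.46). MDM2 was at 62.4 CPM with doxorubicin against 322 CPM with DMSO, a log2 ratio of -2.37 (-2.45 to -2.28). In the same line CDKN1A stood at 507 CPM with etoposide, 768 CPM with MMS and 223 CPM with paclitaxel, and MDM2 at 375 CPM with etoposide, 734 CPM with MMS and 287 CPM with paclitaxel. The doxorubicin library thus had the lowest CDKN1A and MDM2 of the 5 U2OS libraries.

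Of 42 listed targets of the DNA damage response, with roles in arrest, repair and apoptosis, 37 were measured, and 4 were 2-fold or more higher, 8 lower and 25 in between, with a median of -0.33. These are 10.8% higher and 21.6% lower, set against 14.6% and 19.1% of all measured genes. Under total counts 1 was higher and 14 lower. The higher ones included 3 receptors of the death ligand TRAIL. TNFRSF10D, a decoy receptor without a working death domain, had 2948 reads with doxorubicin and 161 reads with DMSO, or 143 CPM with doxorubicin against 8.25 CPM with DMSO, a log2 ratio of 4.12 (3.89 to 4.35). The death receptors TNFRSF10A and TNFRSF10B lay at 1.29 and 1.15, and PERP, a membrane protein gene, at 1.01. Under total counts these 3 were below 2-fold, TNFRSF10A at 0.996, TNFRSF10B at 0.86 and PERP at 0.72. At the low end were TRIAP1, a small mitochondrial survival protein (6.45 CPM with doxorubicin against 74.6 CPM with DMSO, -3.53), PHLDA3, an inhibitor of AKT (9.45 CPM with doxorubicin against 79.4 CPM with DMSO, -3.07), BBC3 (-2.78) and GADD45A (-1.86). BAX (0.17, and -0.12 under total counts), FAS (0.16, and -0.13) and SESN1 (-0.26) differed little, and GDF15, a secreted stress cytokine, was at 13.4 CPM with doxorubicin against 22.3 CPM with DMSO (-0.73, and -1.02 under total counts).

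Genes of the BCL2 family, whose proteins decide on the opening of mitochondria in apoptosis, included lower members on both sides. Of 15 measured among 18, 6 (40%) were lower and 1 (6.67%) higher, set against 19.1% and 14.6% of all measured genes. The killers BBC3 (PUMA, 2.28 CPM with doxorubicin against 15.7 CPM with DMSO) and BAK1 (4.9 CPM with doxorubicin against 26.1 CPM with DMSO, -2.42) were lower, and so were the protectors MCL1 (167 CPM with doxorubicin against 443 CPM with DMSO, -1.41), BCL2L1 (-1.44) and BCL2L2 (-2.10). BCL2L12 was the member past 2-fold in the other direction, at 57 CPM with doxorubicin against 24.9 CPM with DMSO (1.20, and 0.91 under total counts).

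**Figure D2:**
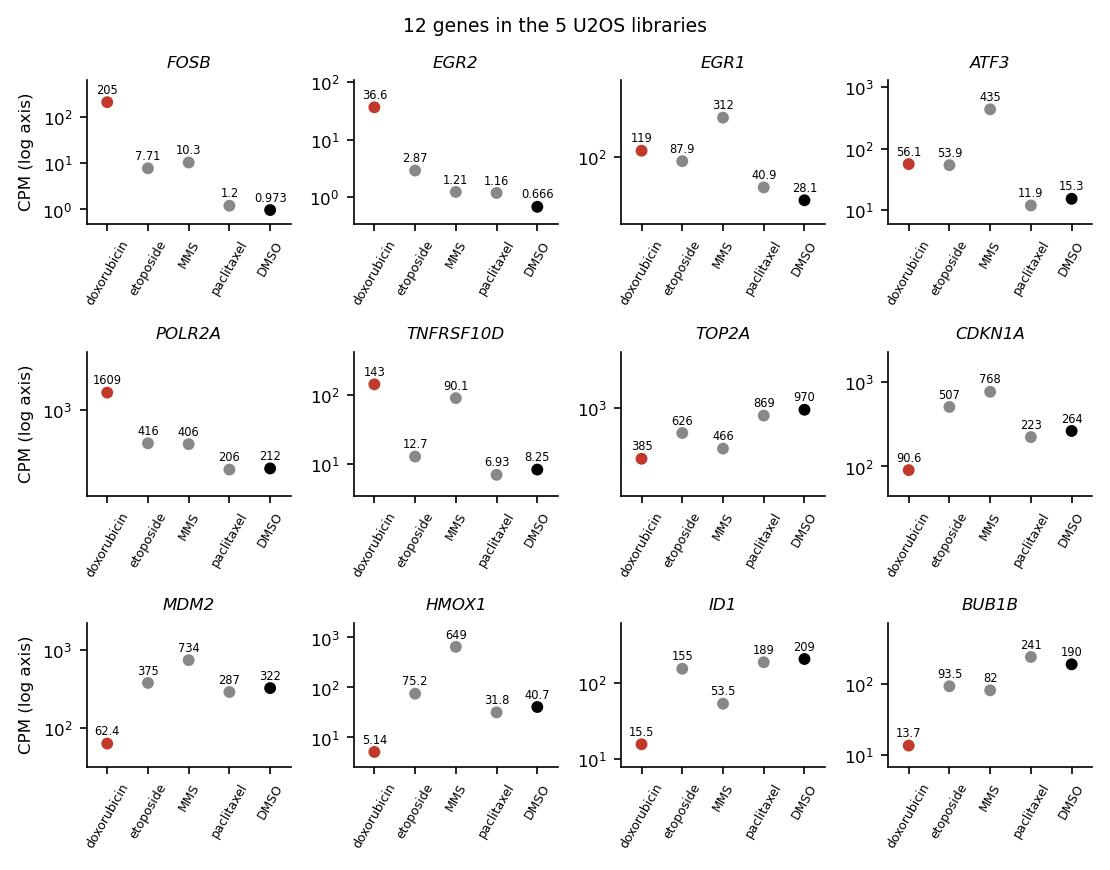
Level of 12 genes in the 5 U2OS libraries, in CPM on log axes, 1 library per point, with doxorubicin in red, the other drugs in grey and DMSO in black; the axis range differs between genes. FOSB, EGR2, POLR2A and TNFRSF10D are highest with doxorubicin, while TOP2A, CDKN1A, MDM2, HMOX1, ID1 and BUB1B are lowest with it.

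Genes that sense and repair DNA breaks were mostly at or below their DMSO level. Of 26 checkpoint genes, 0 were 2-fold or more higher and 8 were lower (median -0.66, with 0 higher and 12 lower under total counts). The lower ones are 30.8%, set against 19.1% of all measured genes. H2AFX, the histone variant phosphorylated at breaks, had 337 reads with doxorubicin and 2708 reads with DMSO, or 16.3 CPM with doxorubicin against 139 CPM with DMSO, a log2 ratio of -3.09 (-3.25 to -2.92). NBN and RAD50, partners of MRE11 in the complex that binds broken ends, lay at -2.36 and -1.70, CHEK2, the checkpoint kinase below ATM, at -1.60, and ATM and ATR at -0.58 and -1.02. ATRIP, the partner of ATR, had the highest value of the list, 0.77.

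Homologous recombination and Fanconi genes, which copy the sister strand to mend a break or cross-link, had 14 of 31 measured members lower and 0 higher (median -0.97, with 0 higher and 22 lower under total counts). Over all genes 19.1% were lower. The lower recombination genes included SLX4, a nuclease scaffold (7.81 CPM with doxorubicin against 39 CPM with DMSO, -2.32), the helicase gene BLM (15.6 CPM with doxorubicin against 66.6 CPM with DMSO, -2.10), BRCA2 (-1.56) and BRCA1 (-1.47). FANCA and GEN1 were at 0.27 and 0.36, and FANCA was at -0.02 under total counts. Among 38 genes of other repair pathways 7 were lower and 1 was higher (median -0.39, with 1 higher and 12 lower under total counts). The lower ones are 18.4%, close to the 19.1% of all genes. The strand-break sensor PARP2 was at 8.24 CPM with doxorubicin against 87.5 CPM with DMSO (-3.41), whereas XRCC6, the Ku70 subunit of end joining, was at 1398 CPM with doxorubicin against 706 CPM with DMSO (0.99), and NEIL1, a glycosylase of base excision repair, at 11.9 CPM with doxorubicin against 2.25 CPM with DMSO (2.40).

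The drug's own target was lower in mRNA in one of its forms. TOP2A, the topoisomerase II of dividing cells, had 7939 reads with doxorubicin and 18936 reads with DMSO, or 385 CPM with doxorubicin against 970.2 CPM with DMSO, a log2 ratio of -1.33 (-1.37 to -1.30). TOP2B, the form that resting cells also use, was at 200.2 CPM with doxorubicin against 214 CPM with DMSO (-0.10), and TOP1 at 274 CPM with doxorubicin against 204 CPM with DMSO (0.43). Of the 6 topoisomerase genes measured, TOP2A was the 1 past 2-fold, with TOP3B at -0.88 (-1.17 under total counts). TOP2A stood at 626 CPM with etoposide, 466 CPM with MMS and 869 CPM with paclitaxel.

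Mitosis genes had the lowest median of the lists, and 36 of the 56 members, all measured, were 2-fold or more lower while 0 were higher. The median log2 ratio was -1.26, against -0.03 over all genes. BUB1B, a spindle checkpoint kinase whose promoter is shown above, had 283 reads with doxorubicin and 3711 reads with DMSO, or 13.7 CPM with doxorubicin against 190.1 CPM with DMSO, a log2 ratio of -3.79 (-3.97 to -3.62). The kinesin KIF20B was at 11.7 CPM with doxorubicin against 113 CPM with DMSO (-3.26), the kinetochore genes CENPA, CENPE and NDC80 at -3.12, -3.02 and -2.92, cyclin A (CCNA2) at -2.81, cyclin B1 (CCNB1) at -2.11, and the kinases PLK1 and AURKB at -2.23 and -2.01. Some mitosis genes lay at or above DMSO on the TMM scale. FOXM1, a transcription factor that drives this programme, was at 436 CPM with doxorubicin against 351 CPM with DMSO (0.31), BIRC5 (survivin) at 262 CPM with doxorubicin against 216 CPM with DMSO (0.28, and -0.01 under total counts) and CDK1 at 0.10 (-0.19). Under total counts 39 of the 56 were lower, and FOXM1 was the 1 member above 0. In bulk RNA, fewer cells in mitosis and less RNA per cell cannot be told apart.

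Of the 56 mitosis genes 46 matched a promoter by symbol. TTTGAA was in 32 of these (69.6%) and CCAAT in 35 (76.1%), against 15.4% and 35.7% of all promoters in the table. Among the promoters of measured genes the shares were 9.32% and 36.8%. Within the list the letters did not go with the ratio. Of the 32 genes with TTTGAA 20 were 2-fold or more lower (median -1.10), and of the 14 without it 10 were (median -1.39).

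Genes of the earlier cell cycle had a median nearer 0. Of 54 genes of G1/S and DNA replication, 3 (5.56%) were higher and 12 (22.2%) lower, set against 14.6% and 19.1% of all measured genes. Their median was -0.03, equal to that of all genes. Under total counts 0 were higher and 18 lower. E2F1, the S-phase transcription factor, was at 185 CPM with doxorubicin against 77.8 CPM with DMSO (1.25, and 0.96 under total counts) and GINS4, a helicase subunit, at 214 CPM with doxorubicin against 90.7 CPM with DMSO (1.24, and 0.95). POLD3, a subunit of DNA polymerase delta, was at 6.55 CPM with doxorubicin against 71.8 CPM with DMSO (-3.46), and RFC1, the clamp loader, at 38.3 CPM with doxorubicin against 201 CPM with DMSO (-2.39). Among 8 CDK inhibitors, 2 were past 2-fold upward and 2 downward (1 higher and 3 lower under total counts). These are 25% each way, set against 14.6% higher and 19.1% lower of all measured genes. CDKN2C (p18) was at 152 CPM with doxorubicin against 57.8 CPM with DMSO (1.40). CDKN2A was at 128 CPM with doxorubicin against 57.8 CPM with DMSO (1.15, and 0.86 under total counts). CDKN1A and CDKN3 (-1.08) were the 2 past 2-fold downward.

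**Figure D3:**
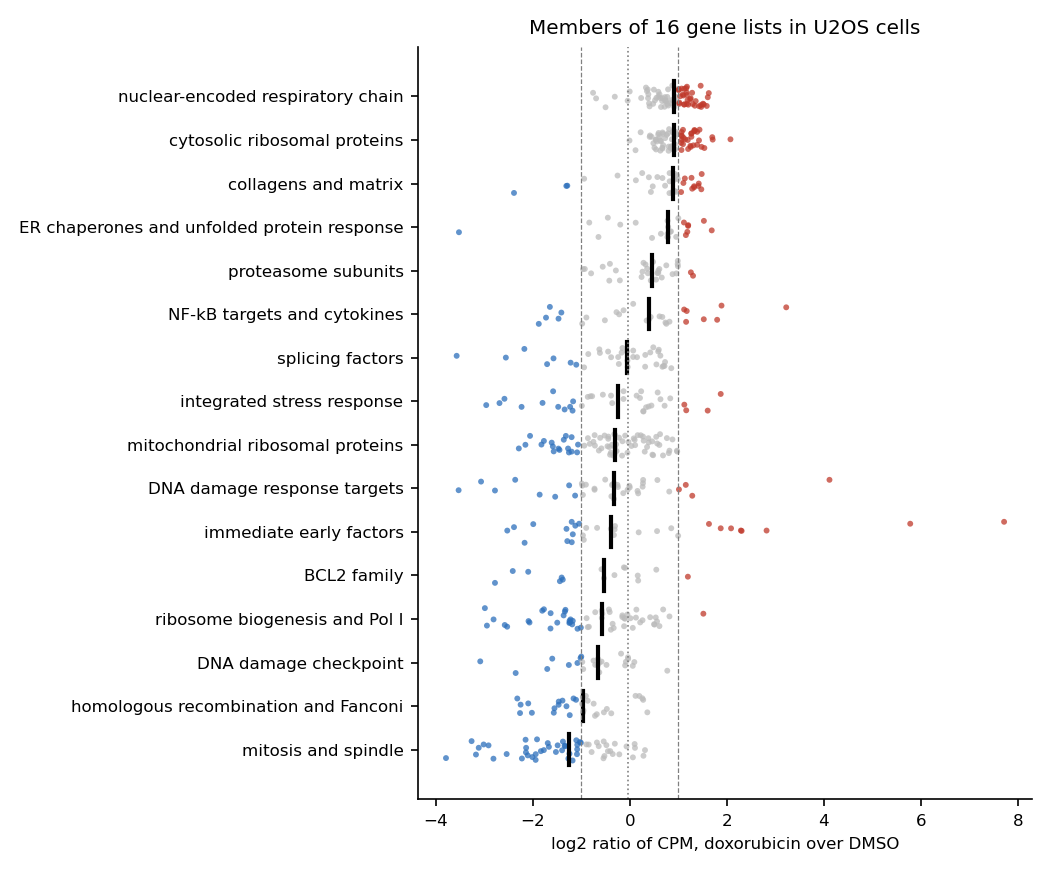
Log2 ratio of CPM, doxorubicin over DMSO in U2OS cells, for the measured members of 16 gene lists, 1 point per gene, with the list's median as a black bar. Dashed lines mark 2-fold, the dotted line the median of all measured genes (-0.03), and points past 2-fold are red (higher) or blue (lower). Respiratory chain, ribosomal protein and matrix genes lie mostly to the right and mitosis and recombination genes mostly to the left.

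At the other end, 2 large sets of housekeeping complexes had high medians and, on the TMM scale, no lower member. Of 79 cytosolic ribosomal protein genes 74 were measured, and 30 were 2-fold or more higher and 0 lower, with a median of 0.91. Their summed level was 49867 CPM with doxorubicin and 25675 CPM with DMSO. RPS29 was at 339 CPM with doxorubicin against 104 CPM with DMSO (1.71), while RPL13 (-0.01) and RPL4 (0.12, and -0.17 under total counts) were lowest. These genes have many processed copies in the genome, so single values are uncertain. Of 75 nuclear-encoded subunits of the respiratory chain, which makes ATP in mitochondria, 33 were higher and 0 lower (median 0.92, with 12 higher and 1 lower under total counts), led by NDUFA13 (220.4 CPM with doxorubicin against 71.4 CPM with DMSO, 1.63) and NDUFB2 (99.6 CPM with doxorubicin against 32.7 CPM with DMSO, 1.61). Under total counts 13 ribosomal protein genes and 12 respiratory chain genes were past 2-fold upward and 0 and 1 past it downward, with medians of 0.62 and 0.63.

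Genes of the mitochondrial ribosome and of ribosome assembly had lower medians. Of 75 measured genes of the mitochondrial ribosome, 0 were higher and 18 lower (median -0.32, with 0 higher and 24 lower under total counts), among them MRPS26 (6.55 CPM with doxorubicin against 32 CPM with DMSO, -2.29) and MRPL34 (-2.15), while MRPL33 lay at 0.98. The lower ones are 24%, set against 19.1% of all measured genes. Of 56 genes of ribosome biogenesis and RNA polymerase I, 1 (1.79%) was higher and 23 (41.1%) lower (median -0.58, with 1 higher and 27 lower under total counts). UTP18 and RRP1B, which process ribosomal RNA, were at 11.2 CPM with doxorubicin against 89.4 CPM with DMSO (-2.99) and at 15.6 CPM with doxorubicin against 121 CPM with DMSO (-2.95). TAF1C, a subunit of the RNA polymerase I promoter factor, was the 1 higher, at 144 CPM with doxorubicin against 50.6 CPM with DMSO (1.51). Proteasome subunits had a median of 0.45, against -0.03 over all measured genes. Of 30 measured, 2 were higher and 0 lower (1 higher and 3 lower under total counts). The higher ones are 6.67%, below the 14.6% of all measured genes. PSMB4 was at 697 CPM with doxorubicin against 283 CPM with DMSO (1.30), and PSMD12 at 58.8 CPM with doxorubicin against 115 CPM with DMSO (-0.97, and -1.26 under total counts).

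RNA polymerase II makes mRNA, and its largest subunit was much higher. POLR2A, which encodes that subunit, had 33175 reads with doxorubicin and 4142 reads with DMSO, or 1609 CPM with doxorubicin against 212 CPM with DMSO, a log2 ratio of 2.92 (2.88 to 2.97), and stood at 416 CPM with etoposide, 406 CPM with MMS and 206 CPM with paclitaxel. Of 24 measured genes for the polymerase's kinases and elongation factors, 5 were higher and 4 lower (median -0.14, with 2 higher and 6 lower under total counts). These are 20.8% higher and 16.7% lower, near the 14.6% and 19.1% of all measured genes. The higher ones were POLR2A, CCNL2 (278 CPM with doxorubicin against 86.9 CPM with DMSO, 1.68), a cyclin linked to splicing, and ELL, SUPT6H and HEXIM1, between 1.01 and 1.04, where total counts gave 0.72 to 0.75. CDK7, the kinase of the initiation factor TFIIH, was lower (10.4 CPM with doxorubicin against 40 CPM with DMSO, -1.94), as were LARP7 (-1.76), CDK8 (-1.66) and CDK12 (-1.53).

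Of 36 measured splicing factors, 7 were lower (19.4%, set against 19.1% of all genes) and 0 higher, with a median of -0.06. All 7 were serine and arginine rich (SR) proteins, which mark exons for the spliceosome. SRSF3 had 621 reads with doxorubicin and 6992 reads with DMSO, or 30.1 CPM with doxorubicin against 358 CPM with DMSO, a log2 ratio of -3.57 (-3.69 to -3.45), and SRSF7 was at 33.3 CPM with doxorubicin against 196 CPM with DMSO (-2.56). SRSF6, SRSF4, SRSF1, SRSF2 and SRSF10 lay between -2.18 and -1.11, while SRSF5 and SRSF9 were both at 0.07 (-0.22 under total counts). The hnRNP genes, whose proteins coat nascent RNA, ran from -0.94 for HNRNPD to 0.85 for HNRNPC. Under total counts 9 splicing factors were lower, the 7 SR genes with HNRNPD (-1.23) and HNRNPR (-1.15).

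Above 10 CPM, bins of more abundant genes had higher median ratios. The level used for binning includes the doxorubicin library, so the same reads enter both the bin and the ratio. With genes binned by their mean over the 5 U2OS libraries, the median log2 ratio was 0.23 below 10 CPM (1750 genes), -0.24 from 10 to 30 CPM (2987 genes), -0.12 from 30 to 100 CPM (4423 genes), 0.13 from 100 to 300 CPM (2047 genes), 0.52 from 300 to 1000 CPM (469 genes) and 0.99 from 1000 CPM upward (54 genes). Of the 54 most abundant genes 27 were 2-fold or more higher and 1 was lower. The bin below 10 CPM did not follow that order, with 28.2% of its genes higher and 20.4% lower, and a gene there could pass the minimum of 5 CPM through the library where it was high alone. Under total counts the median was 0.70 in the top bin, -0.16 from 100 to 300 CPM and -0.06 below 10 CPM. In the same top bin the median was -0.37 with etoposide, -0.35 with MMS and -0.05 with paclitaxel in U2OS, and 0.70 with doxorubicin in MDA-MB231. Ribosomal protein and respiratory chain genes are abundant, and the part that level has in their ratios was not tested.

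**Figure D4:**
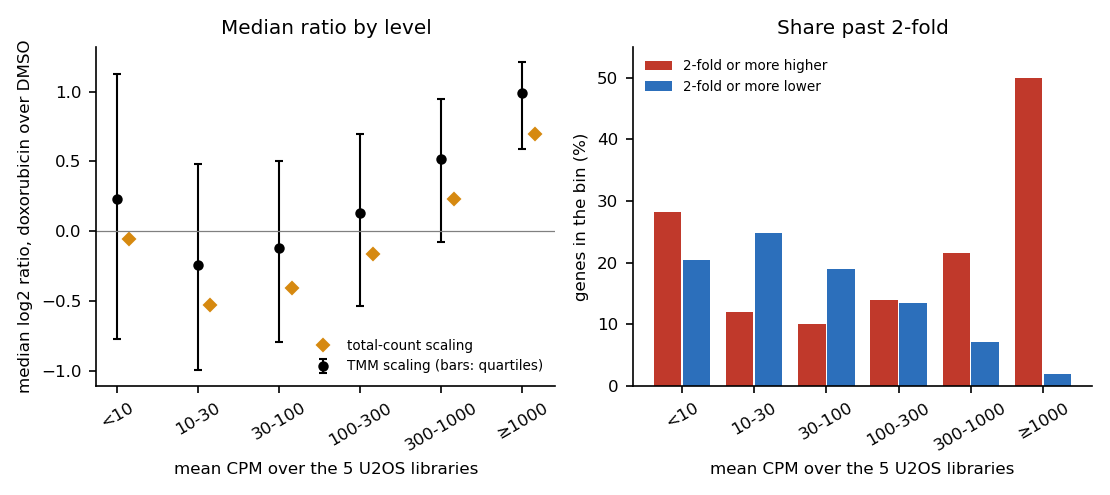
Left, median log2 ratio of doxorubicin over DMSO in U2OS cells for genes binned by mean CPM over the 5 U2OS libraries, with TMM scaling (black, bars from the lower to the upper quartile of genes) and total-count scaling (orange). Right, share of genes in each bin that were 2-fold or more higher (red) or lower (blue). The median is 0.99 and 50% of genes are higher in the top bin of 54 genes.

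The largest gains in CPM went to genes of glycolysis, the cytoskeleton, lysosomes and the matrix. A ranking by gain in CPM favours abundant genes. The median log2 ratio of the 54 genes from 1000 CPM upward was 0.99, so ratios near 1 were common at that level. The part that level has in these gains was not tested. PKM2, listed under an older symbol of the pyruvate kinase gene PKM, was at 11890.4 CPM with doxorubicin against 5146 CPM with DMSO (1.21), and GAPDH, another glycolytic enzyme, at 8727 CPM with doxorubicin against 4033 CPM with DMSO (1.11). Both were under 2-fold with total counts (0.92 and 0.82). The lysosomal genes CTSB and PSAP were at 5039.6 CPM with doxorubicin against 1628 CPM with DMSO (1.63) and at 4486 CPM with doxorubicin against 1514 CPM with DMSO (1.57). The actin regulators FLNA and CFL1 lay at 1.17 (0.88 under total counts) and 1.51, and TIMP1, an inhibitor of matrix proteases, at 4742 CPM with doxorubicin against 1357 CPM with DMSO (1.8). FN1, fibronectin, was at 5303 CPM with doxorubicin against 2802 CPM with DMSO (0.92).

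The largest losses in CPM were of another kind. HSPA8, the constitutive HSP70 chaperone, had 13965 reads with doxorubicin and 55773 reads with DMSO, or 677 CPM with doxorubicin against 2858 CPM with DMSO, a log2 ratio of -2.08. H1F0, a linker histone, was at 198 CPM with doxorubicin against 1012 CPM with DMSO (-2.35), SLC38A2, an amino acid transporter, at 145 CPM with doxorubicin against 721 CPM with DMSO (-2.31), and DDX3X, an RNA helicase, at 161 CPM with doxorubicin against 655 CPM with DMSO (-2.02). AHNAK (-1.12), THBS1 (-0.94, and -1.23 under total counts), DHRS2 (-1.21) and TOP2A completed the 8 largest losses.

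Matrix and adhesion genes also had a high median. Of 35 measured among 36, 11 were higher and 3 lower (median 0.88, and 0.59 with 6 higher and 4 lower under total counts). These are 31.4% higher and 8.57% lower, set against 14.6% and 19.1% of all measured genes. LOXL2, which cross-links collagen, was at 555 CPM with doxorubicin against 199 CPM with DMSO (1.48), the integrin subunit ITGB5 at 975 CPM with doxorubicin against 351 CPM with DMSO (1.47) and the basement membrane collagen COL4A1 at 977 CPM with doxorubicin against 365 CPM with DMSO (1.42). The 3 lower genes were CYR61, CTGF (-1.29), another YAP target, and the collagen receptor subunit ITGA2 (147 CPM with doxorubicin against 364 CPM with DMSO, -1.31). Of 11 measured osteoblast and mesenchymal markers 3 (27.3%) were higher and 1 (9.09%) lower (median 0.69, with 1 higher and 1 lower under total counts). SPP1, osteopontin, was at 12.9 CPM with doxorubicin against 3.13 CPM with DMSO (2.05), and RUNX2 lay at -0.46.

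The inhibitors of differentiation, helix-loop-helix proteins that BMP signalling raises, went apart. ID1 had 320 reads with doxorubicin and 4079 reads with DMSO, or 15.5 CPM with doxorubicin against 209 CPM with DMSO, a log2 ratio of -3.75 (-3.92 to -3.59), and ID3 lay at -4.26 as given above, with ID4 at -2.12. ID2, by contrast, was at 52.5 CPM with doxorubicin against 11.1 CPM with DMSO, a log2 ratio of 2.24 (2.03 to 2.46). BAMBI, a decoy receptor that dampens BMP and TGF-beta signals, was also higher (26.7 CPM with doxorubicin against 5.17 CPM with DMSO, 2.37), while NOG, which binds BMPs outside the cell, lay at -2.76. Over the 21 measured genes of this list 4 were higher and 8 lower (median -0.52, with 2 higher and 9 lower under total counts).

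MAP kinase feedback genes also split, with 4 of 14 measured higher and 4 lower (median -0.11, with 3 higher and 6 lower under total counts). These are 28.6% each way, set against 14.6% higher and 19.1% lower of all measured genes. DUSP6, a phosphatase that switches off ERK, was at 33.4 CPM with doxorubicin against 3.64 CPM with DMSO (3.20, interval 2.85 to 3.57), and SPRY4, an inhibitor upstream of it, at 6.11 CPM with doxorubicin against 1.28 CPM with DMSO (2.25). DUSP2, a nuclear phosphatase, was at 0.873 CPM with doxorubicin against 9.17 CPM with DMSO (-3.39). In the Notch pathway 3 of 14 measured genes were higher and 2 lower (median 0.27, and -0.02 with 2 higher and 3 lower under total counts). These are 21.4% higher and 14.3% lower, set against the same shares of all genes. The ligand DLL1 had 125 reads with doxorubicin and 7 reads with DMSO (4.08, interval 2.99 to 5.42), and the glycosyltransferase MFNG 109 reads with doxorubicin and 13 reads with DMSO (2.99). MAML2, a coactivator of Notch, was at 3.05 CPM with doxorubicin against 13.4 CPM with DMSO (-2.14).

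Stress pathways did not move as blocks. Of 36 measured genes of the integrated stress response, which follows phosphorylation of eIF2alpha, 4 were higher and 11 lower (median -0.25, with 2 higher and 15 lower under total counts). These are 11.1% higher and 30.6% lower, set against 14.6% and 19.1% of all measured genes. ATF4, its master factor, lay at -2.59, with DDIT4, an inhibitor of mTORC1, at 21.3 CPM with doxorubicin against 166 CPM with DMSO (-2.96) and TRIB3, a pseudokinase, at 5.14 CPM with doxorubicin against 33.1 CPM with DMSO (-2.69). ATF3 and PCK2, a mitochondrial enzyme of gluconeogenesis (67 CPM with doxorubicin against 22 CPM with DMSO, 1.6), were highest, and DDIT3 (CHOP) was at 12.3 CPM with doxorubicin against 10.1 CPM with DMSO (0.28, and -0.01 under total counts). The same genes had a median of 1.75 with MMS and 0.00 with etoposide.

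Genes of the endoplasmic reticulum had a high median, and 7 of 24 were higher and 1 lower (median 0.79, and 0.50 with 2 higher and 2 lower under total counts). These are 29.2% higher and 4.17% lower, set against 14.6% and 19.1% of all measured genes. ERN1, the sensor that splices XBP1 mRNA, was at 22.1 CPM with doxorubicin against 6.87 CPM with DMSO (1.69) and the chaperone DNAJB9 at 66.2 CPM with doxorubicin against 23 CPM with DMSO (1.53). HERPUD1, which serves the disposal of misfolded proteins, had 113 reads with doxorubicin and 1231 reads with DMSO (-3.53), and HSPA5 (BiP) lay at -0.20. Of 26 heat shock genes 1 was higher and 5 lower (median 0.12, and -0.17 with 1 higher and 6 lower under total counts). The lower ones are 19.2%, about the share of all measured genes. The small chaperone HSPB8 was at 145 CPM with doxorubicin against 49.2 CPM with DMSO (1.56), and DNAJB1, the HSP40 partner of HSP70, at 37.1 CPM with doxorubicin against 308 CPM with DMSO (-3.05).

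Targets of NRF2, the factor that answers oxidants, were spread over the widest range among the 4 stress lists, with 8 of 28 higher and 5 lower (median 0.20, and -0.09 with 5 higher and 9 lower under total counts). These are 28.6% higher and 17.9% lower, set against 14.6% and 19.1% of all measured genes. HMOX1, which degrades haem, had 106 reads with doxorubicin and 795 reads with DMSO, or 5.14 CPM with doxorubicin against 40.7 CPM with DMSO, a log2 ratio of -2.99 (-3.29 to -2.69), and OSGIN1, an oxidative stress gene, had 18 reads with doxorubicin and 231 reads with DMSO (-3.76). EPHX1, an epoxide hydrolase, was at 132 CPM with doxorubicin against 23.9 CPM with DMSO (2.47), NQO1 at 327 CPM with doxorubicin against 142 CPM with DMSO (1.20, and 0.91 under total counts), and the ferritin and thioredoxin genes FTL and TXN at 1.41 and 1.44. HMOX1 stood at 75.2 CPM with etoposide, 649 CPM with MMS and 31.8 CPM with paclitaxel, so its level with doxorubicin was the lowest of the 5.

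Inflammatory genes were mixed as well. Of 27 measured NF-kB targets and cytokines 7 were higher and 5 lower (median 0.40, with 4 higher and 7 lower under total counts). These are 25.9% higher and 18.5% lower, set against 14.6% and 19.1% of all measured genes. The chemokine CXCL3 was at 65.6 CPM with doxorubicin against 7.02 CPM with DMSO (3.22) and ICAM1, an adhesion receptor for leukocytes, at 28.7 CPM with doxorubicin against 7.74 CPM with DMSO (1.89). The NF-kB subunit RELA and its inhibitor NFKBIA lay at -1.65 and -1.47, and BCL3 at 7.76 CPM with doxorubicin against 28.5 CPM with DMSO (-1.88). IL8 was at 115 CPM with doxorubicin against 65.1 CPM with DMSO (0.82) and IL6 at 30.6 CPM with doxorubicin against 43.8 CPM with DMSO (-0.52). Of 23 interferon-stimulated genes 5 (21.7%) were higher and 4 (17.4%) lower (median 0.28, and -0.01 with 4 higher and 6 lower under total counts). IRF7 had 146 reads with doxorubicin and 7 reads with DMSO (4.30), and IRF1, another interferon regulatory factor, was at 55.7 CPM with doxorubicin against 13.1 CPM with DMSO (2.09). IFI44 was at 7.85 CPM with doxorubicin against 42 CPM with DMSO (-2.42).

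Zinc finger genes with ZNF symbols, most of which encode repressors bound to DNA, had a low median. Of 528 such genes 359 were measured, and 21 were higher and 154 lower (median -0.80, with 11 higher and 194 lower under total counts). These are 5.85% higher and 42.9% lower, set against 14.6% and 19.1% of all measured genes. Their median was 0.33 with etoposide and 0.56 with MMS in the same line. This list was taken by symbol after the data had been seen, and many of its genes are near copies of one another.

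Doxorubicin in MDA-MB231 cells, a basal breast cancer line, gave an independent pair of libraries for the same drug and dose. Against MDA-MB231 DMSO replicate 1, 945 of 11156 genes (8.47%) were 2-fold or more higher and 2202 (19.7%) lower. Across the 10523 genes measured in both lines, the log2 ratios of U2OS and MDA-MB231 correlated with Pearson r = 0.81 and Spearman rho = 0.83, as a description across genes, which are not independent replicates. Of the genes higher with doxorubicin, 617 were shared, which is 43.9% of the 1406 in U2OS and 75.2% of the 820 in MDA-MB231. Of those lower, 1370 were shared, which is 68.0% of 2014 in U2OS and 66.6% of 2058 in MDA-MB231. Opposite directions past 2-fold were seen for 12 genes, 8 higher in U2OS and 4 lower. Against MDA-MB231 DMSO replicate 2, 1386 of 11174 genes (12.4%) were 2-fold or more higher and 2439 (21.8%) lower with doxorubicin. With that vehicle r was 0.78 over 10543 genes, and 764 higher and 1426 lower genes were shared.

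**Figure D5:**
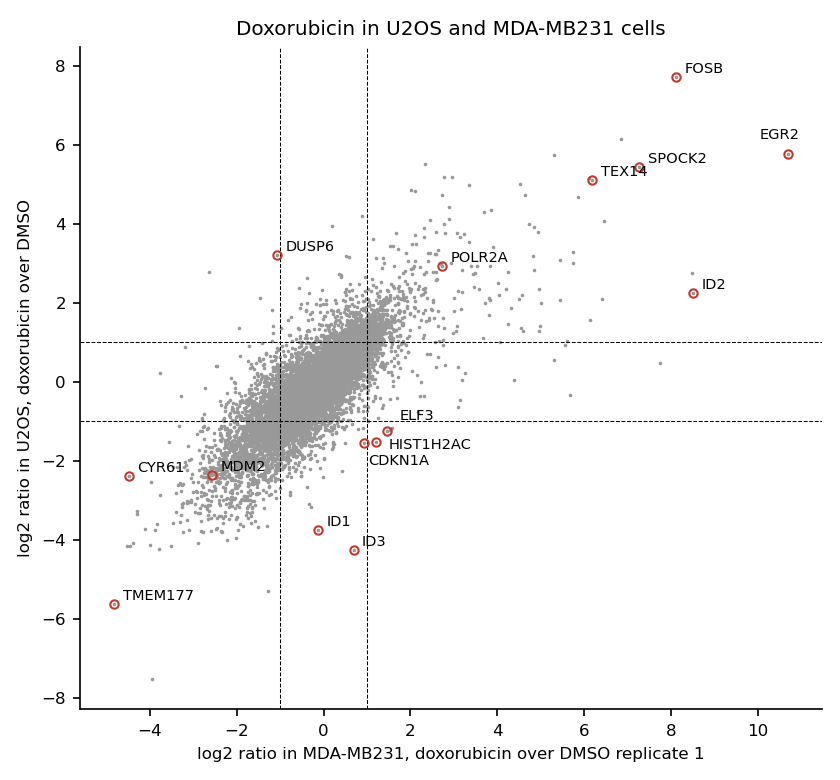
Log2 ratio of CPM, doxorubicin over DMSO, in U2OS (vertical axis) against MDA-MB231 (horizontal axis, DMSO replicate 1) for the 10523 genes measured in both, 1 point per gene, with dashed lines at 2-fold. Most genes lie along the diagonal (r = 0.81), while DUSP6 lies in the upper left and HIST1H2AC and ELF3 in the lower right.

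Some genes far from DMSO in U2OS cells were also far from it in MDA-MB231 cells, and others were not. FOSB was at 385 CPM with doxorubicin and 1.38 CPM with DMSO in MDA-MB231 (8.12), and EGR2 at 197 CPM with doxorubicin and 0.118 CPM with DMSO (10.70). The EGR2 ratio there rests on very few DMSO reads, so its size is uncertain. POLR2A was at 1967 CPM with doxorubicin and 296 CPM with DMSO (2.73), and TMEM177 at 0.466 CPM with doxorubicin and 13.2 CPM with DMSO (-4.82). Mitosis genes had a median of -1.20 there, recombination genes -0.86, respiratory chain genes 0.89 and ribosomal protein genes 0.77. MDM2 was low in both, at -2.56 in MDA-MB231. CDKN1A was at 285 CPM with doxorubicin and 150.3 CPM with DMSO in MDA-MB231 (0.92), against -1.54 in U2OS. ID1 and ID3, at -3.75 and -4.26 in U2OS, were at -0.13 and 0.69 in MDA-MB231, and ID2, at 2.24 in U2OS, was at 8.51. With 1 doxorubicin library per line no difference between the lines was tested.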

How the data were processed

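RNA was extracted with a silica-column kit and libraries were made by standard Illumina methods, per the labels' protocols. The authors deposited whole-number read counts per gene symbol for each library, with 5 summary rows. CASAVA 1.8.2, TopHat2 2.0.8b and HTSeq made them, per the submitters' processing notes, which also name the builds hg19 and mm9; hg19 was taken for these human cells. Not given in the sources used here are the RNA selection, the read length and the strand setting, and so overlapping antisense genes cannot be told apart, and reads shared by near-identical genes make histone, ribosomal protein and tubulin genes uncertain. Counts of 24490063 (doxorubicin) and 18959126 (DMSO) allow small ratios of abundant genes to be seen above counting error.

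The summary rows were left out. TMM factors came from edgeR 4.0.16 in R 4.3.3 over all 11 libraries (16530 genes passing its expression filter). Ratios used Python 3.11.15 with pandas 2.3.3 and scipy 1.17.1. The form of the ratio and the 2-fold rule were tried on simulated counts scaled by total counts, which does not check the TMM scaling. Nothing was added to CPM, and a count of 0 was set to 3 reads. Called means 2-fold or more. Intervals are exact Clopper-Pearson intervals of one library's share of a gene's reads. Alternatives were total counts, TMM over the 2 libraries, DESeq2 1.42.0 size factors, other minimums and 0.5 CPM added. Genes named are the 15 highest and 15 lowest ratios (at least 10 CPM, no placeholder, antisense, small RNA or pseudogene symbols), the 8 largest gains and losses of CPM, the 2 highest and 2 lowest members of each of 42 lists, 18 genes known from drug responses and the cell type markers; further list members are given as examples, chosen after their values were seen. Some genes that this rule names are not reported here. List symbols were matched directly or through older symbols. The members and lists were chosen with earlier results of these data known.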

Additional observations from a re-analysis of the deposited data

Results flagged for a closer look

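Among the named genes, 3 passed 2-fold in opposite directions with doxorubicin in the 2 lines. No test of the difference between the lines was run, since each line has 1 doxorubicin library. DUSP6, the ERK phosphatase, lay at 3.20 (log2 ratio) in U2OS cells and at -1.08 in MDA-MB231 cells (-1.37 against MDA-MB231 DMSO replicate 2). HIST1H2AC, a histone H2A gene, was at -1.54 in U2OS and 1.20 in MDA-MB231 (2.06 against replicate 2); histone genes are near copies of one another, so its counts are uncertain. ELF3, an epithelial transcription factor, was at -1.24 in U2OS, with 8.87 CPM with doxorubicin against 21 CPM with DMSO, and 1.47 in MDA-MB231 (1.48 against replicate 2). In data outside the gene counts, the share of reads outside genes was 9.70% with doxorubicin and 7.74% with DMSO in U2OS, and the share aligned to several places was 37.5% with doxorubicin and 32.7% with DMSO. With MMS in U2OS the share outside genes was 9.27%, near that with doxorubicin.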

How the results depend on the processing

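No paired analysis was possible because each side of the comparison has 1 library and no test was run. With total gene counts and the measured genes chosen anew on that scale, 900 genes were 2-fold or more higher, 3186 were lower and the median log2 ratio was -0.34, since every ratio is lowered by the same amount. With no minimum level 3979 genes were higher and 3920 lower over 19176 genes, and with a minimum of 1 CPM 2602 were higher and 2688 lower, as more genes with few reads entered. With TMM over the 2 libraries alone 1515 were higher and 2360 lower, with DESeq2 size factors 1774 and 2206, with a minimum of 10 CPM 1437 and 1970, and with 0.5 CPM added 1642 and 2172. Of 215 named genes measured, 17 were no longer past 2-fold under total counts, 9 were newly past it and 10 changed sign, and 7 of 42 list medians changed sign (NRF2 targets, Notch pathway, anthracycline reductases, heat shock genes, interferon-stimulated genes, noncoding RNAs and histones). The other 2 scalings changed 1 list median each and the sign of 1 named gene each. With MDA-MB231 DMSO replicate 2 as the vehicle, chosen after seeing the data, r between the lines was 0.78. Depth limits the genes with few reads in 1 library. Intervals spanned more than 1 log2 unit for NR4A3 with 31 reads with DMSO (2.27 to 3.41). They did so too for RAD51D with 39 reads with doxorubicin (-2.79 to -1.75).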

Other observations

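Further gene groups are given beside the shares of all measured genes, of which 14.6% were 2-fold or more higher and 19.1% lower. Of 22 measured cholesterol synthesis genes 5 (22.7%) were 2-fold or more lower with doxorubicin and 0 higher (median -0.53, with 0 higher and 8 lower under total counts). SQLE, squalene epoxidase, had 30.8 CPM with doxorubicin against 227 CPM with DMSO (-2.88), MVK, mevalonate kinase, 5.33 CPM with doxorubicin against 24.4 CPM with DMSO (-2.20), and SREBF2, the factor that drives the pathway, 399.9 CPM with doxorubicin against 259 CPM with DMSO (0.62). Among enzymes that reduce anthracyclines 2 of 10 were higher and 1 lower (median 0.27, and -0.02 with 0 higher and 2 lower under total counts). AKR1B1, an aldo-keto reductase, was at 340.3 CPM with doxorubicin against 159 CPM with DMSO (1.09, and 0.80 under total counts), and CBR1, a carbonyl reductase, at 18.7 CPM with doxorubicin against 37.6 CPM with DMSO (-1.0). Of 6 drug efflux transporters measured 2 were higher, ABCC3 at 74.6 CPM with doxorubicin against 26.8 CPM with DMSO (1.48) and ABCC5 at 102 CPM with doxorubicin against 49.5 CPM with DMSO (1.05, and 0.76 under total counts). ABCB1, the P-glycoprotein pump known to export doxorubicin, was at 5.67 CPM with doxorubicin against 4.2 CPM with DMSO, and at 44 CPM with etoposide, 18.7 CPM with MMS and 4 CPM with paclitaxel.

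Noncoding RNAs and genes of other tissues varied gene by gene. NEAT1, the scaffold of paraspeckles, was at 82.5 CPM with doxorubicin against 493 CPM with DMSO (-2.58), and SNHG1, a host of small nucleolar RNAs, at 435 CPM with doxorubicin against 103 CPM with DMSO (2.07); over 15 measured noncoding RNAs 3 were higher and 4 lower (median 0.02, and -0.26 with 2 higher and 5 lower under total counts). Of 49 measured very long genes 5 were higher and 11 lower (median -0.46, with 2 higher and 18 lower under total counts), against medians of -1.01 with etoposide and -1.37 with MMS. Of 10 tubulins 1 was higher and 0 lower (median -0.01), namely TUBB3 (197 CPM with doxorubicin against 79 CPM with DMSO), and of 9 measured histones among 61 listed 1 was higher and 1 lower (median 0.22, and -0.07 with 1 higher and 2 lower under total counts). Of 16 genes often used as references 5 were higher and 2 lower (median 0.51, with 3 higher and 2 lower under total counts), with B2M at 2485 CPM with doxorubicin against 893 CPM with DMSO. Of 11 epithelial markers 2 were higher and 3 lower (median -0.05, with 1 higher and 4 lower under total counts), CLDN6 with 109 reads with doxorubicin and 4 reads with DMSO and CLDN4 with 32 reads with doxorubicin and 369 reads with DMSO. Of the few blood (1), neuronal (4), muscle (3) and germline (3) markers measured, 1, 1, 2 and 1 were higher (0, 1, 2 and 1 under total counts) and 0 were lower. PYGM, muscle glycogen phosphorylase, had 189 reads with doxorubicin and 5 reads with DMSO (5.16), and CD14, a monocyte receptor under the minimum level, had 44 reads with doxorubicin and 2 reads with DMSO.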
